A study of Mus musculus with 4 samples.

Results

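S100 proteins and annexins are families of calcium-binding proteins, and 10 of their genes were followed in 4 cultures of mouse melan-a melanocytes: S100a1, S100a4, S100a6, S100a10, S100a11, S100a13, S100b, Anxa1, Anxa2 and Anxa5. They were taken as every probe set that the platform annotation gives to these genes, and the genes were selected on the log2 levels of these arrays and their differences. Of the 10, 9 had at least 1 probe set of their own, among 18193 genes with one, and these 9 had 16 sets in all. The only set annotated to S100a11 also lists the pseudogene S100a11-ps and the gene model Gm12854. Its values are given as those of a shared set and enter no count.

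Small S100 proteins pair up, open on binding calcium and then dock onto other proteins. Annexins bind acidic membrane lipids when calcium rises, and S100a10 and S100a11 tie pairs of annexins together, S100a10 with annexin A2 and S100a11 with annexin A1. In pigment cells S100B is a widely used marker of melanocytes and melanoma, while S100A4 and S100A6 are known from motile and proliferating cells.

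Melan-a is an established line of immortal mouse melanocytes. The 4 cultures, each on 1 Affymetrix array, were Hmhi cells starved in DMEM with dialyzed serum, and Hmhi, Hmhi-Miz1 kd and Hmhi-MYC-TA cells kept in the same medium with 100 ng/ml EGF, all for 14 days. Before that all lines grew with the phorbol ester TPA and cholera toxin. What Hmhi and MYC-TA stand for is not given in the labels, which write Hmhi-Miz1 kd also as Hmhi-pS-Miz1 and do not say whether a line is 1 clone or a pool. With 1 array per condition there was no replicate spread, no test was run, and each difference compares 2 arrays and not the conditions.

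Levels are deposited log2 signals, with a median of 6.66 on every array. A log2 difference of 1 is 2-fold. A gene with several probe sets was represented by the set with the highest mean, called its main set, and entered a comparison if the brighter of both arrays reached that array's median. The technical SD, the only error at hand, is the pooled SD of a comparison's differences among sets that read the same gene. It was 0.32 for Hmhi EGF minus Hmhi starved, 0.22 for labelled Miz1 kd minus Hmhi EGF, 0.26 for MYC-TA minus Hmhi EGF and 0.41 for MYC-TA minus labelled Miz1 kd. It holds no spread between cultures, RNA samples or hybridizations, and a level of 1 probe set is not compared with that of another.

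Zbtb17, which encodes Miz-1, read 9.08 on the array labelled Miz1 kd against 8.72 on Hmhi EGF, so its transcript does not bear out the label and directions are those of the array as labelled. Myc read 10.64 in Hmhi starved and 10.60, 10.79 and 9.78 in the Hmhi, labelled Miz1 kd and MYC-TA cultures with EGF. Of 12 melanocyte markers, 9 or 10 were at or above the median on each array, with Sox10 between 12.96 and 13.37. Tyr, the gene of tyrosinase, and Ednrb, an endothelin receptor of the lineage, were below it on all 4. Keratinocyte markers had 2 of 9 measured genes at or above the median on each array and macrophage markers 1 or 2 of 6. Fibroblast markers had 5 or 6 of 10, and Schwann cell markers 3 or 4 of 6. The summed linear signal ranged from 616 to 660 for the keratinocyte list, 493 to 889 for macrophage, 4856 to 6916 for fibroblast, 22883 to 32251 for Schwann cell and 22862 to 37906 for melanocyte. Such sums add unlike probe sets and do not rank the lists. In the Schwann cell list Mbp was the brightest gene, at 13.95 to 14.70. Ngfr and Gfap were below the median on all 4 arrays, while Mbp, Erbb3 and Foxd3 were at or above it.

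In the starved culture 6 of the 9 main sets had their highest level, and on the MYC-TA array the other 3. How many of all genes peak on each array was not counted, and these genes were selected on the levels themselves. The lowest level was on Hmhi EGF for S100a4, S100a6, S100a10 and Anxa5, on the array labelled Miz1 kd for S100a1, S100a13, S100b and Anxa1, and on MYC-TA for Anxa2. In 8 of the 9 the main set was at or above the median on all 4 arrays. S100a6 was the exception, at or above it on MYC-TA alone.

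**Figure D1:**
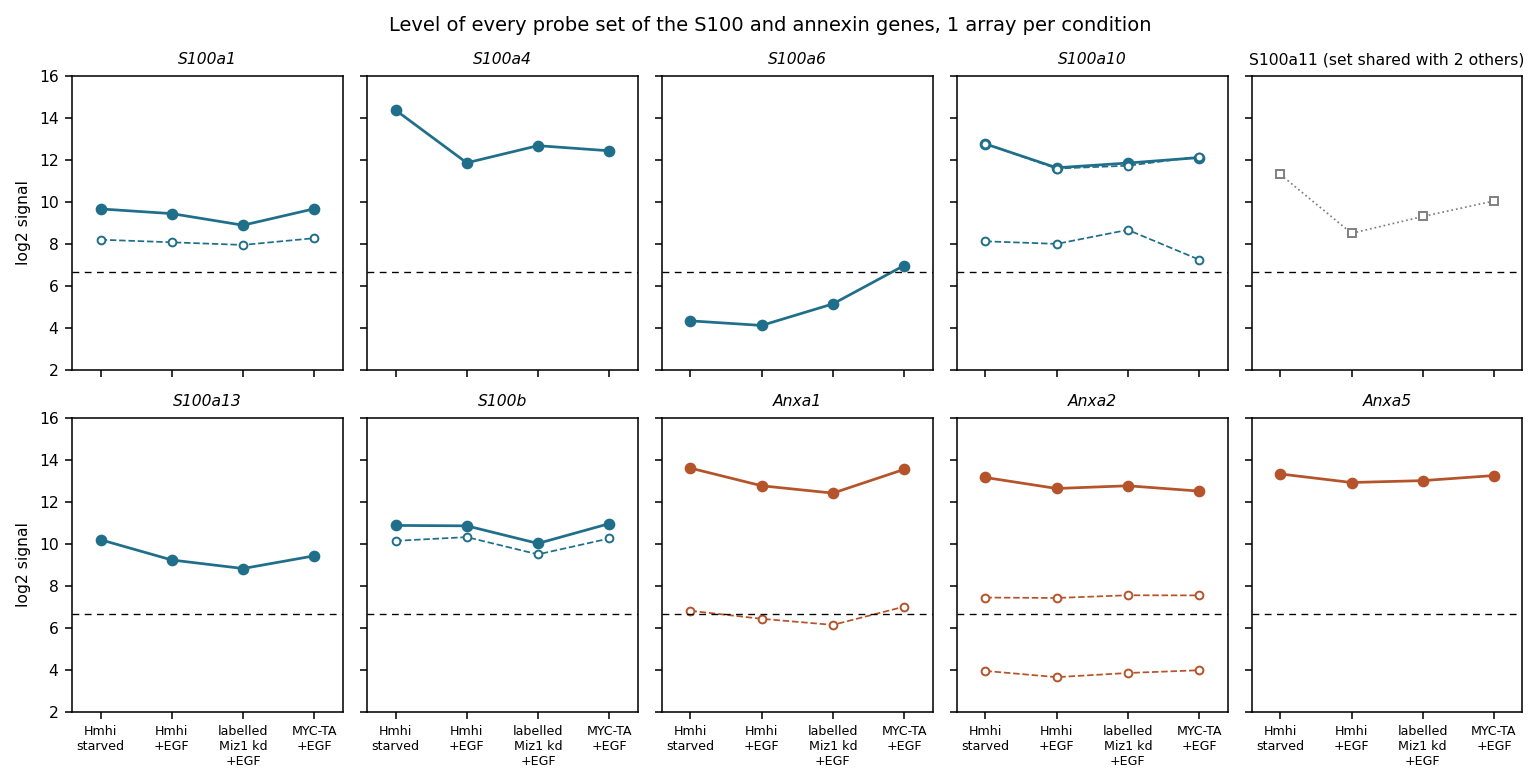
The log2 signal (vertical axis) of every probe set of the 10 genes is plotted on each of the 4 arrays (horizontal axis), with S100 genes in blue and annexins in orange. Filled points are main sets, open points other sets, grey squares the set S100a11 shares, the dashed line is the array median of 6.66, and the lines between arrays only guide the eye. S100a4 is highest in the starved culture at 14.38, and S100a6 passes the median only on MYC-TA, at 6.97.

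S100a4 encodes metastasin, which binds nonmuscle myosin and is also known as fibroblast-specific protein. On its 1 probe set Hmhi starved read 14.38, Hmhi EGF 11.87, labelled Miz1 kd 12.68 and MYC-TA 12.44. The starved culture stood far above the 3 EGF cultures, and Hmhi EGF was the lowest of them. In such bulk RNA, fewer cells with a transcript and less of it per cell cannot be told apart. The log2 difference of Hmhi EGF minus starved was -2.51, a 5.70-fold lower signal and 7.77 technical SDs. Only 50 of the 11461 genes in that comparison, S100a4 included, were at that value or lower. Relative to Hmhi EGF the level was 0.82 higher in labelled Miz1 kd, where 69 of 11394 genes were at that value or higher, and 0.57 higher in MYC-TA. Both stayed below the starved culture, by log2 differences of -1.69 and -1.94. MYC-TA and labelled Miz1 kd were -0.24 apart, less than the technical SD.

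The 250 bases before the RefSeq start of S100a4 (GRCm38.p6, chr3:90603520-90603769, plus strand) are shown because this gene had the largest difference with EGF among the 9. Capitals mark TATAAA, the TATA box, which recruits the transcription machinery.

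S100a4: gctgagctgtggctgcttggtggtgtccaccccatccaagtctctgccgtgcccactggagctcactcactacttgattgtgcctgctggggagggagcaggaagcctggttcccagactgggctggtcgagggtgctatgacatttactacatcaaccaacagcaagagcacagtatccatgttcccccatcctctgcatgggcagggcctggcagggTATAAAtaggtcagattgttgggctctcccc

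S100a10 encodes a partner of annexin A2 that is locked in its open form without calcium and carries channels and plasminogen to the cell surface. Its main set read 12.77, 11.63, 11.86 and 12.12 in Hmhi starved, Hmhi EGF, labelled Miz1 kd and MYC-TA. As for S100a4, the starved culture was highest and Hmhi EGF lowest. The difference with EGF was -1.14, 2.20-fold, and a second set gave -1.18. The third and dimmest set went another way: it read 8.13, 8.01, 8.67 and 7.26, a difference of -0.12 with EGF. Against Hmhi EGF, MYC-TA was 0.48 higher in the main set, 0.57 higher in the second and at -0.75 in the third. The direction for S100a10 in MYC-TA thus depends on the probe set.

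The set that S100a11 shares with S100a11-ps and Gm12854 read 11.31, 8.51, 9.31 and 10.05 in the same order. It too was highest in the starved culture and lowest in Hmhi EGF, with a log2 difference of -2.80 with EGF, 0.80 for labelled Miz1 kd and 1.54 for MYC-TA against Hmhi EGF. Which of the 3 annotated transcripts gave this signal cannot be told from the set.

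S100a13, a protein that helps release FGF1 by a route without a signal peptide, read 10.20, 9.24, 8.83 and 9.43 on its 1 set. The starved culture was highest and labelled Miz1 kd lowest. With EGF the difference was -0.97, just short of 2-fold, while S100a10 at -1.14 was just past it. Labelled Miz1 kd was at -0.41 from Hmhi EGF and MYC-TA at 0.20, the latter within the technical SD.

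S100b is the S100 gene most tied to melanocytes, Schwann cells and astrocytes. In the main set Hmhi starved read 10.88, Hmhi EGF 10.86, labelled Miz1 kd 10.03 and MYC-TA 10.97. The second set read 10.15, 10.33, 9.50 and 10.26. In both sets 3 arrays lay close together and labelled Miz1 kd was below them. Its difference from Hmhi EGF was -0.84 and -0.82 in the 2 sets, 3.77 and 3.70 technical SDs, short of 2-fold. With EGF the main set differed by -0.02 and the second by 0.18, both within the technical SD.

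S100a1, known mainly from heart and skeletal muscle, where it acts on the calcium release channel, read 9.67, 9.45, 8.89 and 9.68. Labelled Miz1 kd was again the lowest, at -0.55 from Hmhi EGF, but the second set gave only -0.13. The main set's name ends in _s_at, by which Affymetrix marks sets that can read more than 1 transcript. RefSeq places the starts of S100a1 and S100a13 back to back on opposite strands, with overlapping gene spans. Both were lowest on the array labelled Miz1 kd, while with EGF S100a1 was at -0.22, within the technical SD, and S100a13 at -0.97.

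S100a6, or calcyclin, binds Cacybp and is known to rise when resting cells enter the cycle. On its 1 set Hmhi starved read 4.34, Hmhi EGF 4.12, labelled Miz1 kd 5.15 and MYC-TA 6.97. The first 3 levels were below the array median and MYC-TA was just above it. MYC-TA was 2.85 higher than Hmhi EGF, 7.23-fold, and 5 of 11534 genes, S100a6 included, were at that difference or higher. It was 1.83 higher than labelled Miz1 kd and 2.64 higher than Hmhi starved. S100a6 entered these comparisons only through its MYC-TA level, so it had to differ there, and background limits the size of the fold. Labelled Miz1 kd was 1.03 higher than Hmhi EGF with both levels below the median, so this was not counted.

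S100a6 lies next but 1 to S100a4 on chromosome 3, with S100a5 between them. The gene in the middle was below the median on all 4 arrays, between 5.73 and 5.93. The starved array was the highest for S100a4 and MYC-TA for S100a6, so these neighbours did not share an order of levels. The sequence before the start of S100a6 (GRCm38.p6, chr3:90612644-90612893, plus strand) is printed beside that of S100a4 for this contrast. It held none of the 4 motifs searched.

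S100a6: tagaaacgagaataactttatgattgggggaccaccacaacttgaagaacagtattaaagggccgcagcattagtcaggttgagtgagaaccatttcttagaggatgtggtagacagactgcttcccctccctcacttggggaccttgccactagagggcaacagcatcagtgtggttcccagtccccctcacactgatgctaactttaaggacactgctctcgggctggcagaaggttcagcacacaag

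Just after the start, from base 15 to base 20, the S100a6 window held CACGTG, the E-box that MYC with MAX, and also MITF and USF proteins, can bind. It is in capitals in the 30 bases at chr3:90612896-90612925 (plus strand), shown because S100a6 had the largest difference on MYC-TA.

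S100a6 E-box: agagtttcgagtCACGTGccagaagggaaa

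Both strands of windows from 250 bases before to 50 after the start were searched for 4 short motifs. RefSeq windows were at hand for 9 of the 10 genes, S100a10 not among them. The E-box, CACGTG, was found for S100a6 and S100a11, against 7.15% of 32851 windows of all genes. The AP-1 motif of FOS and JUN proteins, written TGANTCA, was found for Anxa2 and S100a11, against 7.81%. The TATA box was in the windows of S100a4, Anxa1 and Anxa2, against 13.6% of all windows. The last motif, GGGCGG, which SP1 proteins bind, was in those of Anxa2 and S100a11, against 35.7%. None of these matches overlapped another. These are matches of letters and not measured binding. The AP-1 matches are given in capitals in their 30 bases, since they mark the only annexin of the 3 and the only S100 gene with that motif. They lie at chr9:69453576-69453605 for Anxa2, and at chr3:93520348-93520377 and chr3:93520446-93520475 for S100a11, all on the plus strand of GRCm38.p6.

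Anxa2: ttccaagttggaTGAGTCAcccagcagggt
S100a11 distal: acagagacctgtTGAGTCAcagggactaca
S100a11 proximal: gcgggcacagccTGAGTCAggctgaggggc

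Anxa1 encodes annexin A1, a glucocorticoid-induced protein that restrains cytosolic phospholipase A2 and signals through formyl peptide receptors. Hmhi starved read 13.61 in the main set, Hmhi EGF 12.77, labelled Miz1 kd 12.42 and MYC-TA 13.55. The starved and MYC-TA cultures lay together, 0.06 apart, and Hmhi EGF and labelled Miz1 kd lay below them. The difference with EGF was -0.84. MYC-TA was 0.78 higher than Hmhi EGF and 1.13 higher than labelled Miz1 kd, 2.19-fold. A second, dimmer set read 6.82, 6.43, 6.14 and 7.01, with the same directions and differences of -0.38, 0.58 and 0.87 for these comparisons. It was below the median on 2 arrays.

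Anxa2, which joins S100a10 in a complex at the plasma membrane, read 13.17, 12.64, 12.77 and 12.52 in its main set. The starved culture was highest and the 3 EGF cultures lay within 0.25 of each other, less than the technical SD between the lowest and the highest of them. The difference with EGF was -0.52, but -0.02 in a second set, and the third was below the median on all 4 arrays. S100a10, its partner, was at -1.14 in the same comparison.

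Anxa5, whose product binds phosphatidylserine and is used as a probe of dying cells, had the narrowest range of the 9 main sets. It read 13.33, 12.93, 13.02 and 13.26, a spread of 0.41 over the 4 arrays. Hmhi EGF was lowest, at -0.41 from the starved culture, and MYC-TA was 0.33 higher than Hmhi EGF.

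**Figure D2:**
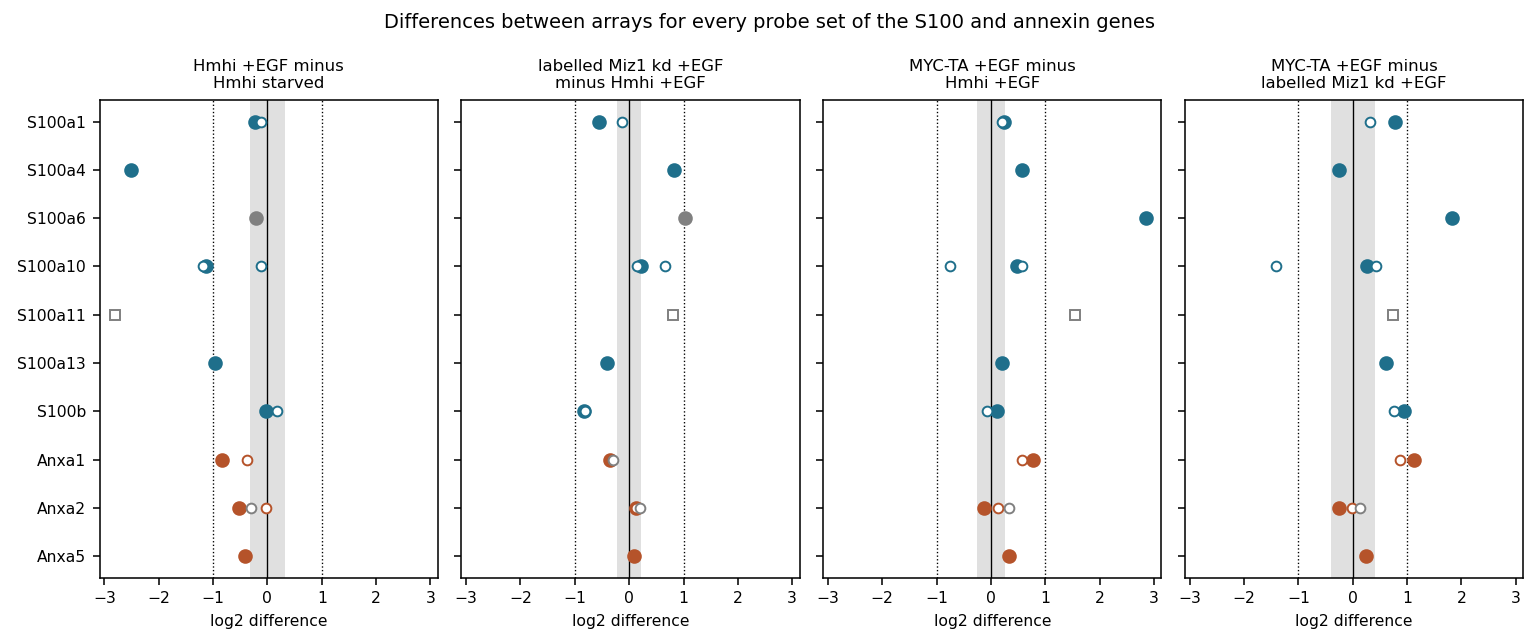
Each of the 4 comparisons has a panel with the log2 difference (horizontal axis) of every probe set of the 10 genes. Filled points are main sets, open points other sets, squares the set S100a11 shares, and grey circles sets that did not pass the level filter, while the grey band is 1 technical SD and dotted lines mark 2-fold. With EGF the main sets lie from -2.51 to -0.02, and on MYC-TA S100a6 stands apart at 2.85.

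Hmhi EGF minus Hmhi starved shows the members with and without EGF in the same cells. S100a6 did not pass the level filter in it. Of the 8 genes that passed, 2 were at least 2-fold lower, S100a4 and S100a10, against 4.96% of all 11461 genes, and 0 were at least 2-fold higher, against 7.98%. All 8 had a negative sign, as did 5658 of all genes tested, and 6 were beyond the technical SD, as were 6083 of all. The median was -0.68, against 0.006 for all genes. These values describe a list that was chosen with these arrays in view. The 18S rRNA control sets were also higher in Hmhi EGF, by a median of 0.83, the 3'-to-5' log2 difference of the Actb control sets was higher by 0.20 and that of Gapdh was at -0.09. Marker lists went both ways. Of the 10 melanocyte markers that passed 5 were higher and 5 lower, with a median of 0.455. Slc45a2, Pmel, Dct and Oca2 were 1.62, 1.51, 1.48 and 1.07 higher and Tyrp1 was at -1.02. Among fibroblast markers Fbln1 and Postn were 2.91 and 2.24 higher and Dcn was at -1.16. Of the Schwann cell list 3 of the 4 markers that passed were lower, with a median of -0.545. Egr2 was at -3.26 and Mbp at -0.70, while Erbb3 was 1.34 higher. The other Mbp sets were at -1.05 to -2.67. Of the macrophage list Csf1r was at -2.66 and Cd68 1.52 higher, but the other Csf1r sets were at -0.90 and -0.57. The part of these in the S100 and annexin differences was not tested.

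The labelled Miz1 kd array minus Hmhi EGF sets the cells so labelled beside Hmhi cells, both in EGF. Of the 8 genes that passed, 0 were 2-fold higher, against 0.290% of all 11394 genes, and 0 were 2-fold lower, against 2.50%. By sign 4 were higher and 4 lower, as were 5962 and 5411 of all genes tested. The median was -0.13 against 0.018. S100b at -0.84 and S100a4 at 0.82 were the ends of the range. The 18S sets were at a median of -0.31 here. The markers at least 2-fold apart were Dct of the melanocyte list, at -2.07, and Postn of the fibroblast list, at -1.30. By sign 5 of 10 melanocyte markers were lower. Of the 6 fibroblast markers that passed 4 were lower, with a median of -0.75, while Pdgfrb of that list was 0.98 higher. Their part was not tested.

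MYC-TA minus Hmhi EGF sets that line beside the same Hmhi array. All 9 passed the filter, S100a6 only through MYC-TA. One gene, S100a6, was at least 2-fold higher, against 1.30% of all 11534 genes, and 0 were 2-fold lower, against 1.65%. The median was 0.33 against 0.045, and 8 had a positive sign, as did 6360 of all. Of 10 melanocyte markers 9 were lower, with a median of -0.41, and Oca2 and Slc45a2 were at -3.16 and -2.70. Fibroblast markers went both ways, with Col3a1 2.48 and Dcn 1.22 higher and Pdgfrb at -3.27. Of the 4 Schwann cell markers that passed 3 were lower, with a median of -0.26, while Egr2 was 1.12 higher. The 2 keratinocyte markers that passed differed by 0.06 and 0.14. The part of these markers in the S100 and annexin differences was not tested.

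Between MYC-TA and labelled Miz1 kd all 9 genes passed the filter, S100a6 again only through MYC-TA. With MYC-TA the higher, 2 of the 9, S100a6 and Anxa1, passed 2-fold, against 6.72% of all 11613 genes. None of the 9 was 2-fold lower in its main set, against 4.26%. The third set of S100a10 was at -1.42, while its main set was 0.26 higher. S100b was 0.94, S100a1 0.78 and S100a13 0.60 higher in MYC-TA. The median was 0.60 against 0.039. Of the 10 melanocyte markers that passed 7 were lower, with a median of -0.38. Oca2 and Slc45a2 were at -3.88 and -2.73 and Dct and Kit 1.88 and 1.15 higher. The fibroblast markers Col3a1, Dcn and Postn were 3.43, 2.12 and 1.18 higher and Pdgfrb was at -4.26. Of the 4 Schwann cell markers that passed 3 were lower, with a median of -0.54, while Egr2 was 1.12 higher. The part of these markers was not tested. The comparisons share arrays, so their values are not independent of each other.

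**Figure D3:**
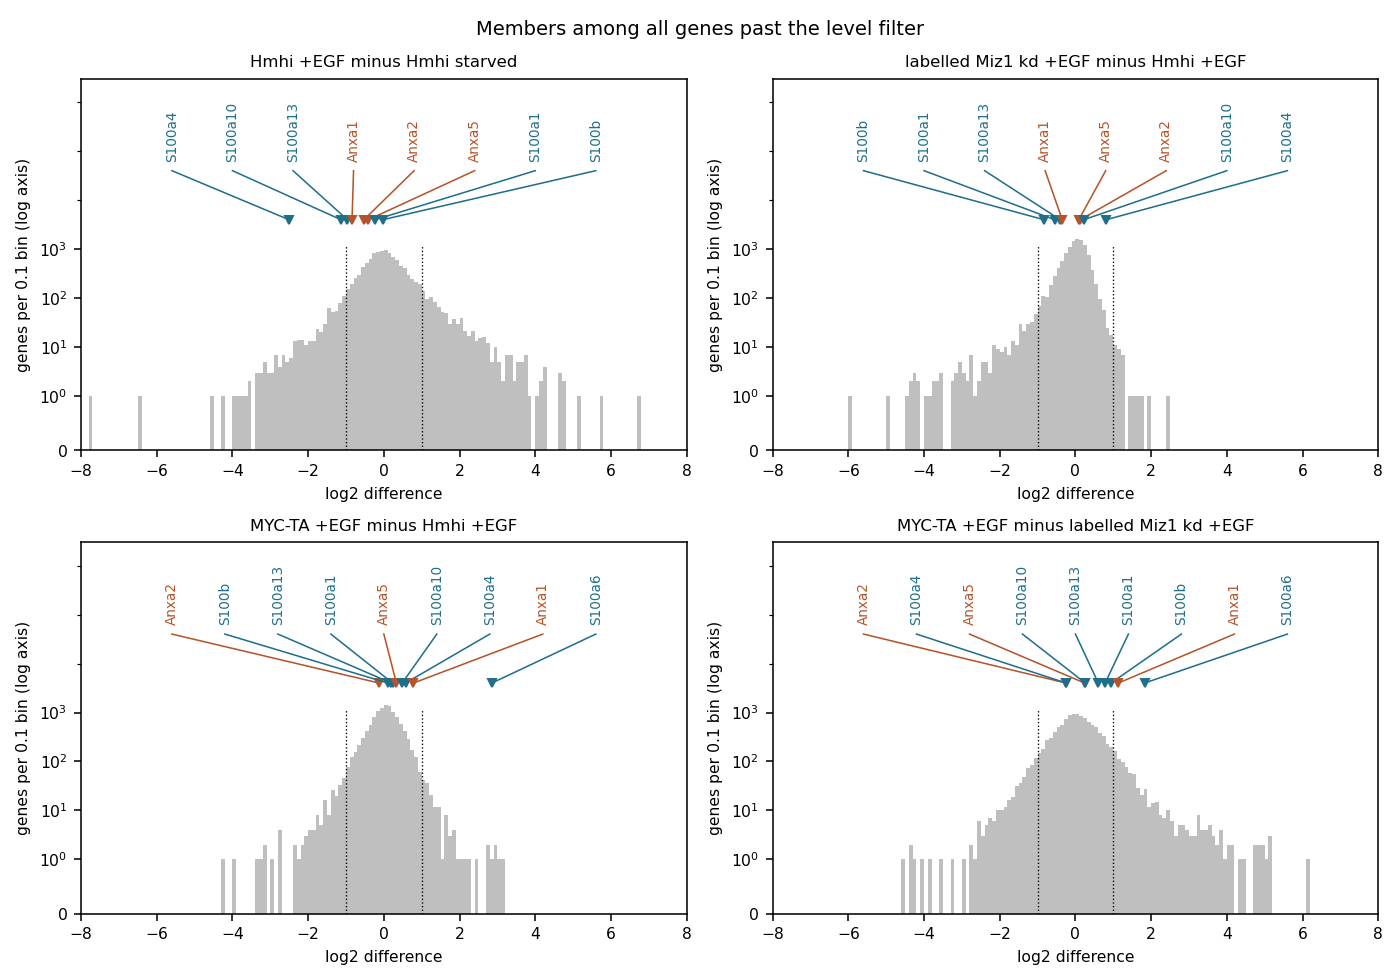
The number of genes per bin of 0.1 (vertical log axis) is plotted against the log2 difference for all genes past the level filter in each comparison, and triangles mark the S100 (blue) and annexin (orange) main sets that passed. Dotted lines mark 2-fold. With EGF all 8 triangles lie at or left of 0, with S100a4 at -2.51, and most others sit within the bulk of the genes.

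Of 9 other S100 genes 7 had a probe set, and S100a16 alone passed the level filter, at -0.37 with EGF, 0.17 in labelled Miz1 kd and -0.21 in MYC-TA against Hmhi EGF. It was also at -0.38 between MYC-TA and labelled Miz1 kd. S100a8 and S100a9, the calprotectin genes of neutrophils, were below the median on all 4 arrays. S100a8 nevertheless read 4.54, 6.59, 4.30 and 5.93, higher in Hmhi EGF and MYC-TA than in the other cultures, which background limits.

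Other annexins had 4 of 8 measured genes past the filter. Anxa7, a membrane-fusing annexin, was the 1 at least 2-fold lower with EGF, against 4.96% of all genes. It read 11.57, 10.24, 10.53 and 10.00, a difference of -1.33. A second set gave -1.48 and the third -0.10. The median of the 4 was -0.28 with EGF, against 0.006 for all genes, and 2 of them, Anxa6 and Anxa9, lay within the technical SD, at -0.10 and -0.06. The other Anxa6 sets were 0.01, 0.41 and 0.998 higher. In labelled Miz1 kd, MYC-TA and between those arrays none of the 4 was 2-fold apart. The medians were 0.18, -0.13 and -0.33, against 0.018, 0.045 and 0.039 for all genes.

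Among 31 partners and receptors of these proteins, 21 passed the filter in each comparison. With EGF 4 were at least 2-fold higher, against 7.98% of all genes, and 0 lower, against 4.96%. The median was 0.18, against 0.006 for all genes. Pla2g4a, the cytosolic phospholipase A2 that annexin A1 restrains, read 6.90, 9.39, 8.91 and 9.48 and was 2.50 higher with EGF. Bsg, a receptor that binds S100A9, was 1.57 higher, Myh10, a nonmuscle myosin, 1.29 and Ager, the receptor for advanced glycation end products, 1.24. The second Ager set gave 0.35. None was 2-fold apart from Hmhi EGF in the other EGF cultures. The medians were 0.09 for labelled Miz1 kd and -0.06 for MYC-TA, against 0.018 and 0.045 for all genes. Ppp5c, a phosphatase that S100 proteins can activate, was at -1.21 between MYC-TA and labelled Miz1 kd. The median there was -0.25, against 0.039 for all genes.

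Ahnak, a giant scaffold bound by the annexin A2 and S100a10 complex, was singled out after its values were seen. Its main set read 13.88, 12.98, 13.47 and 13.12, highest in the starved culture like S100a10. The difference with EGF was -0.89 there and -2.85, -2.64 and -0.53 in its 3 other sets. Cacybp, the partner of S100a6, was likewise singled out: it read 10.65, 10.06, 10.16 and 10.91, with MYC-TA 0.85 above Hmhi EGF.

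**Figure D4:**
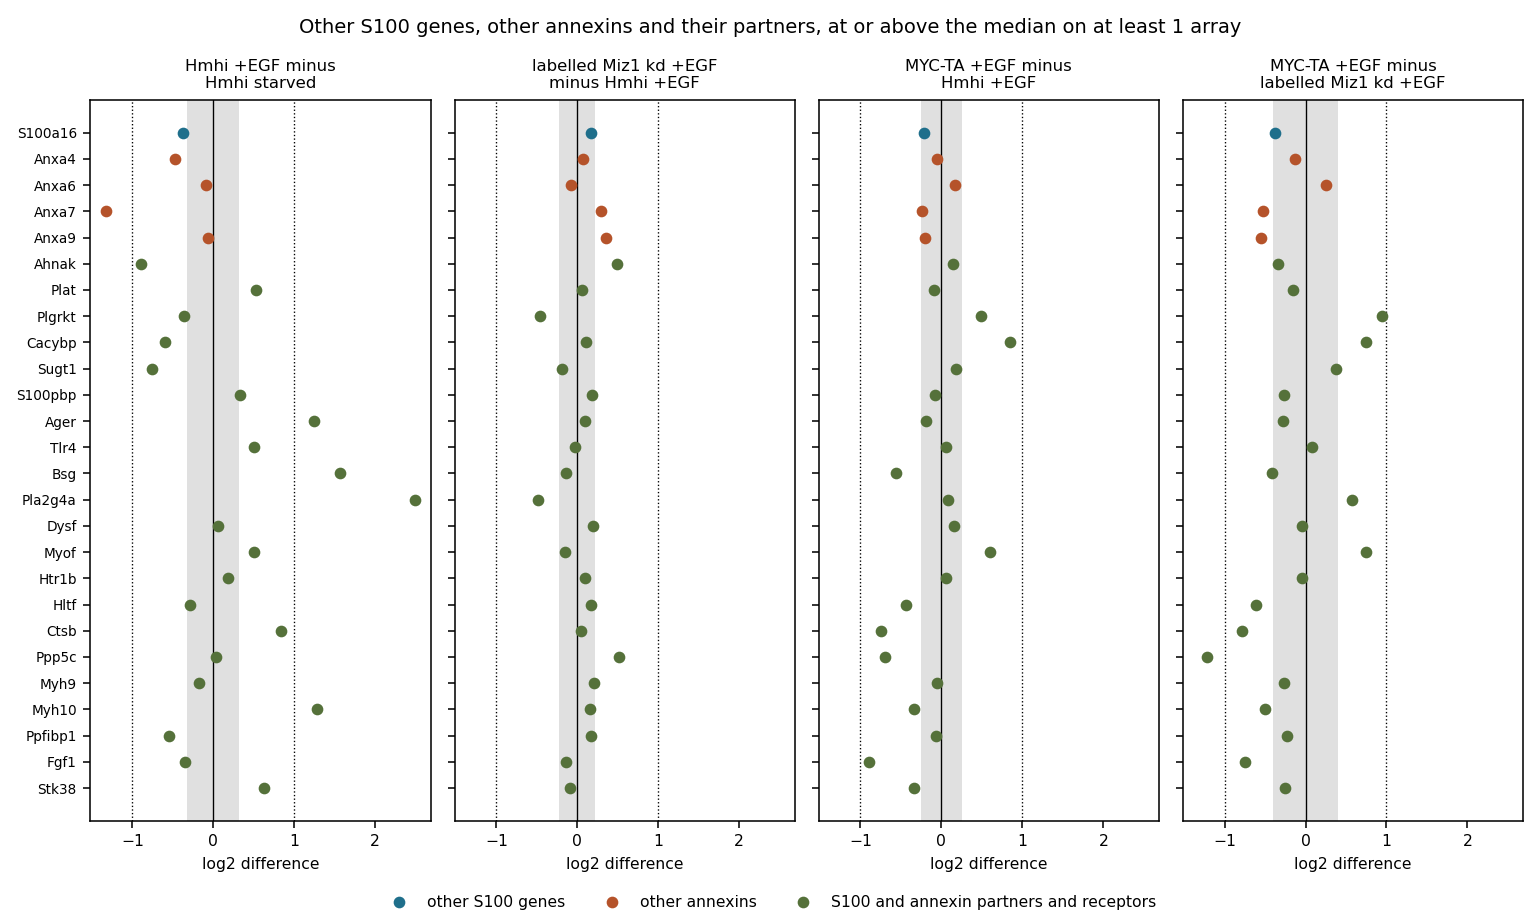
The log2 difference (horizontal axis) in each comparison is plotted for the main set of each other S100 gene (blue), other annexin (orange) and partner or receptor (green) that reached the median on at least 1 array. The grey band is 1 technical SD and dotted lines mark 2-fold. With EGF, Pla2g4a at 2.50 is farthest to the right and Anxa7 at -1.33 farthest to the left.

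Among the 9 genes with a set of their own, S100a6 and S100a4 had the widest ranges over the 4 arrays, 2.85 and 2.51. The set S100a11 shares had a range of 2.80. Their nearest genes were found by the root mean square difference of gene-centred log2 levels over the 4 arrays, among 11231 named genes that reached the median. For S100a4 these were Epb41l3, Cdc42ep2 and Alox5, at 0.10, 0.12 and 0.13. Epb41l3, a membrane skeleton protein, read 12.38, 10.15, 10.86 and 10.57. For S100a6 they were Cth, Mamdc2 and Fbn2, at 0.51, 0.53 and 0.53, so no gene followed S100a6 as closely as those 3 followed S100a4. Cth, which encodes cystathionase, read 4.34, 5.18, 6.20 and 8.31. With 4 arrays such likeness is a description of these values only.

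**Figure D5:**
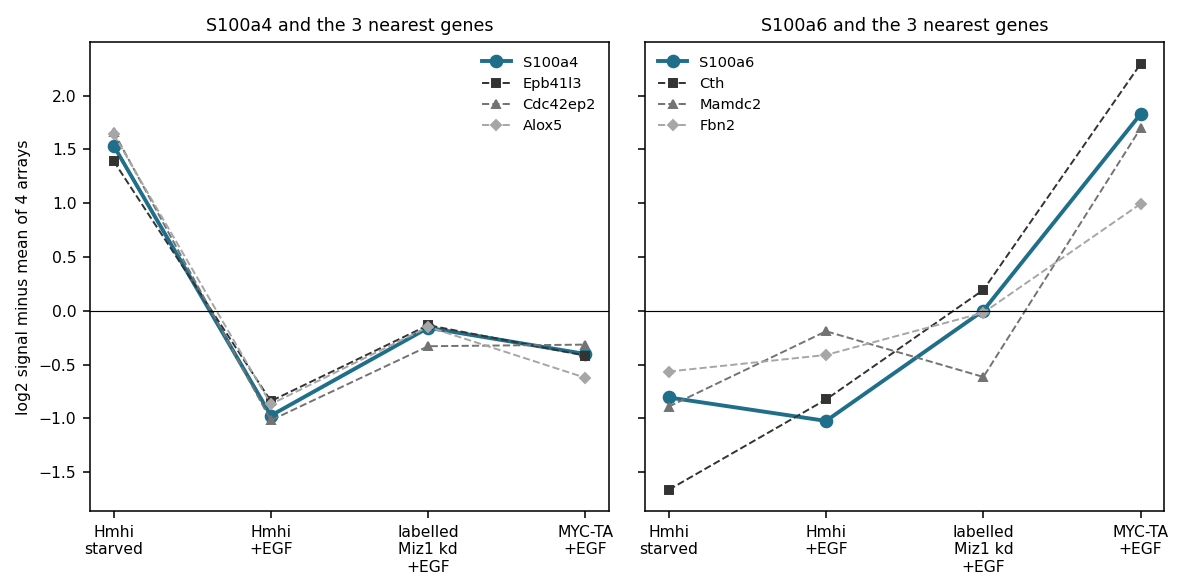
Log2 levels minus each gene's mean over the 4 arrays (vertical axis) are plotted by array for S100a4 and S100a6 (blue) and the 3 nearest genes of each (grey), with lines that only guide the eye. The genes near S100a4 lie almost on it, at root mean square differences of 0.10 to 0.13, and those near S100a6 lie 0.51 to 0.53 away.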

How the data were processed

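Total RNA of 4 melan-a cultures was measured on 1 Affymetrix array each. The IVT-Express kit was used for labelling, per the labels' protocols. The 45101 deposited values per array run from 2.94 to 15.12 and were read as log2 signals, and the log base, summarization and normalization are not given in the sources used here. Once sorted, the columns differed by at most 0.004, so the authors' values were already on 1 scale and any global shift is hidden.

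The platform annotation of 2016 named 1 gene for 34945 probe sets and several for 932, which name none here, and it leaves 9160 non-control sets unnamed. Of these sets 34754 were found by Entrez identifier in RefSeq's gene table, with 0 symbols changed. Windows of 300 bases at gene starts are RefSeq's (GRCm38.p6).

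Differences were taken between arrays, with no test, and described against a 2-fold threshold. All probe sets of the members are named. From other lists, genes at least 2-fold apart were named, at most 4 per list and comparison. Tyrp1 and Mbp with EGF, and Pdgfrb in labelled Miz1 kd, were added after their values were seen. Lists for 5 cell types served as checks. The members and lists were chosen with earlier results of these data known. The 7 alternatives were other scalings (common median, quantile, loess with span 0.4), level filters (none, 75th percentile) and probe set rules (mean, plain _at only). The steps were tested on simulated data. Tools were Python 3.11.15 with numpy 2.4.6, pandas 2.3.3, statsmodels 0.14.6 and matplotlib 3.10.9.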

Additional observations from a re-analysis of the deposited data

How the results depend on the processing

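No paired analysis was possible because there was a single array for every condition, which also means that none can be left out. Rescaling (median shift, quantile or loess) changed no count of members 2-fold apart. The median shift and quantile steps could hardly do so, since the sorted columns already differed by at most 0.004. With no level filter the count 2-fold higher in labelled Miz1 kd than in Hmhi EGF was 1 (S100a6) instead of 0. With the filter at the 75th percentile S100a6 dropped out, so the counts 2-fold higher in MYC-TA were 0 against Hmhi EGF and 1 against labelled Miz1 kd. Plain _at sets only, which leave S100a6 and Anxa5 without a set, gave the same 0 and 1. With the mean of all probe sets, 1 gene (S100a4) instead of 2 was 2-fold lower with EGF, since S100a10 was at -0.81. S100a10 in MYC-TA was then 0.10 against Hmhi EGF and -0.24 against labelled Miz1 kd. Of 244 differences of single genes recomputed, 238 moved by no more than the technical SD. Many of these could not move, since a level filter changes no difference and the columns were already on 1 scale. The 6 that moved all came from the probe set rules, 3 from the mean and 3 from plain _at sets. Precision is limited by having 4 arrays, and signals below the median, as for S100a6, are limited by background.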

Other observations

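Some dim probe sets, picked after their values were seen, read unlike the main set of their gene. The third set of S100a10 was 0.67 higher in labelled Miz1 kd and at -0.75 in MYC-TA against Hmhi EGF. The third set of Anxa7 was 0.38 higher and at -1.08 in these comparisons, and a dim set of Anxa6, an annexin of membrane traffic, was 0.57 higher and at -0.69. The main sets of S100a10, Anxa7 and Anxa6 differed from Hmhi EGF in MYC-TA by 0.48, -0.24 and 0.17. Fgf1, the growth factor released with S100a13, was at -0.89, -1.06 and -1.98 in its 3 sets in MYC-TA against Hmhi EGF. No explanation was tested.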
